A study of Mus musculus with 7 samples.

Results

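The 10 genes described here encode the hyaluronan link proteins (Hapln1, Hapln2, Hapln3 and Hapln4), the lectican proteoglycans (Acan, Bcan, Ncan and Vcan), tenascin-R (Tnr) and syndecan-1 (Sdc1). They were taken by symbol from 24421 gene symbols with counts, and all 10 were among the 16905 genes with enough counts to test. The set was put together with this comparison of CicKO and Wildtype cerebellum already known, and Hapln2 and Sdc1 were selected on their low counts in CicKO. Their differences in that comparison are therefore given as a description, with fold changes and standard errors but no p-value.

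RNA of whole cerebellum was sequenced from 4 CicKO and 3 Wildtype samples of C57BL/6 mice. CicKO mice carried En1-Cre and 2 floxed Cic alleles, while the mice titled Wildtype carried 1 floxed and 1 normal Cic allele and no Cre was named for them. En1 is expressed in the embryonic region that forms midbrain and cerebellum, and En1-Cre recombines floxed DNA there and in all later progeny. Because Cre was named for CicKO alone, the roles of Cre and of Cic loss cannot be told apart. Age, sex and litter are not in the labels, nor is it stated that every library came from another animal, so p-values measure the spread between these libraries, which may be technical. Each library held 102653765 to 121285349 counts in genes. The libraries numbered 3 stood apart in choroid plexus transcripts, whose 10 markers summed to 12102 CPM (each count relative to the gene counts of its library, scaled between libraries by the trimmed mean of M values) in CicKO 3 and 8330 CPM in Wildtype 3, against 204 to 304 CPM in the other CicKO and 219 to 357 CPM in the other Wildtype libraries.

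Hyaluronan is a long sugar polymer that fills the space between brain cells. Lecticans bind it through their N-terminal domain, link proteins clamp that bond, and tenascin-R ties the other ends of lecticans together. Such complexes form perineuronal nets, which surround large neurons of the cerebellar nuclei and Golgi neurons of the cerebellar cortex, and they also coat the nodes of Ranvier of myelinated axons. Syndecan-1 is a heparan sulfate proteoglycan that spans the cell membrane, and it has no hyaluronan-binding link domain. Cic encodes capicua, a DNA-binding repressor that forms complexes with ataxin-1.

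Cic itself was measured first as a check of the labels. It was at 147, 146, 144 and 147 CPM in CicKO, against 216, 257 and 223 CPM in Wildtype. Every CicKO library was below every Wildtype library, with a log2 fold change of -0.66 (SE 0.0622, edgeR quasi-likelihood adjusted p = 0.00256). Counts cover the whole gene, so the remaining level includes any transcript left after recombination and any RNA of cells without Cre.

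Of the 10 genes, Hapln2 and Sdc1 were lower in CicKO and the other 8 were not called in either direction at an adjusted p below 0.05 in edgeR. Among all genes tested, 0.828% were called lower and 1.25% higher, and nothing is read from the count of 2 because these values took part in the choice of the set. The CicKO and Wildtype libraries did not overlap for 4 of the 10 genes, with Hapln2 and Sdc1 lower and Bcan and Ncan higher, against 8.36% of all genes tested without overlap on the lower side and 7.06% on the higher side. Log2 fold changes were negative for 5 genes and positive for 5, with a median of -0.03, beside a median of -0.0044 over all genes tested. The call of Hapln2 depended on single libraries, since Hapln2 was not called without CicKO 1 or without Wildtype 1. Its log2 fold change was -1.17 without CicKO 1 and -1.26 without Wildtype 1, against -1.19 with all libraries. Over all genes, 21 were called lower without CicKO 1 and 25 without Wildtype 1, against 140 with all libraries. Sdc1 was called lower in every alternative analysis. The calls among the 10 genes also depended on the tool, since DESeq2 called Bcan and Ncan higher as well.

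**Figure D1:**
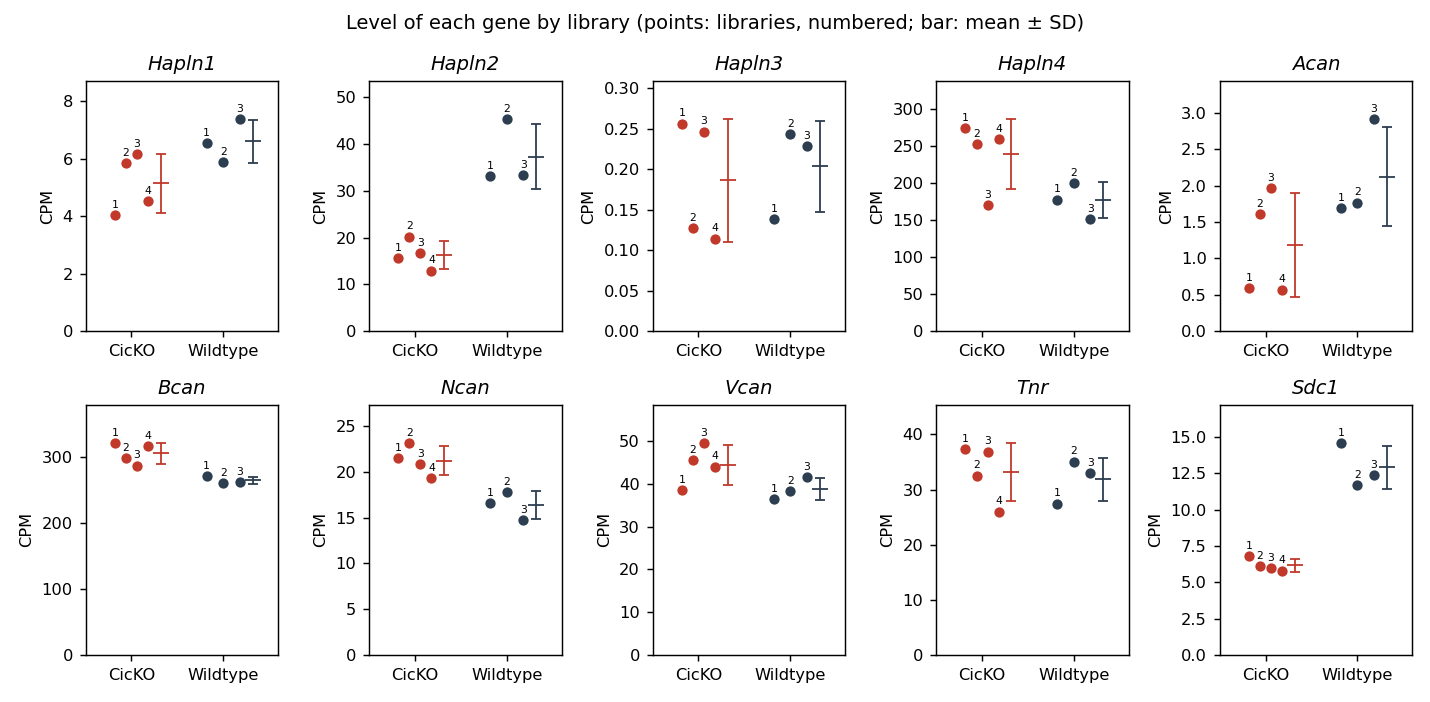
CPM of each of the 10 genes in every library, with CicKO in red on the left and Wildtype in dark blue on the right of each panel; numbers are library numbers and bars are mean ± SD (n = 4 and 3). Hapln2 and Sdc1 are lower in all 4 CicKO libraries than in any Wildtype library, Bcan and Ncan are higher in all 4, and the other 6 genes overlap.

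Among the link proteins, Hapln2 had the largest difference. Its product, also called Bral1, is made by oligodendrocytes and holds versican in the matrix of nodes of Ranvier. Hapln2 was at 15.7, 20.2, 16.7 and 13.0 CPM in CicKO, against 33.2, 45.3 and 33.4 CPM in Wildtype. The highest CicKO library lay well below the lowest Wildtype library, and the means were 16.4 ± 3.0 CPM in CicKO and 37.3 ± 6.94 CPM in Wildtype (SD, n = 4 and 3). The level was 2.28-fold lower, a log2 fold change of -1.19 (SE 0.165) that stayed between -1.30 and -1.02 in the 13 alternative analyses. These values rest on 1364 to 4851 counts per library.

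Sdc1, whose product binds growth factors and matrix proteins through heparan sulfate chains and is best known from epithelia and plasma cells, was the other gene with a large difference. It was at 6.80, 6.12, 5.96 and 5.81 CPM in CicKO, against 14.6, 11.7 and 12.4 CPM in Wildtype. The 4 CicKO libraries lay close together and all below the Wildtype range, with means of 6.17 ± 0.438 CPM in CicKO and 12.9 ± 1.51 CPM in Wildtype (SD, n = 4 and 3). The level was 2.09-fold lower (log2 fold change -1.06, SE 0.103), and the alternatives ranged from -1.13 to -0.96.

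Because these genes share the direction of their difference, the DNA just upstream of both is shown. The sequences are from RefSeq (GRCm38.p6), written 5′ to 3′ on the strand of each gene, and end before the outermost transcript start of GENCODE M21; capitals mark CG dinucleotides, the letters that carry DNA methylation and that are dense in CpG islands. The Hapln2 stretch is chr3:88027584-88027761 on the minus strand and the Sdc1 stretch is chr12:8771146-8771322 on the plus strand.
Hapln2: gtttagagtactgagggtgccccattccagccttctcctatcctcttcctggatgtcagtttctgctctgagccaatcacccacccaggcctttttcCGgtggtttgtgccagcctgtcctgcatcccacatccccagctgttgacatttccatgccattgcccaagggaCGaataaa
Sdc1: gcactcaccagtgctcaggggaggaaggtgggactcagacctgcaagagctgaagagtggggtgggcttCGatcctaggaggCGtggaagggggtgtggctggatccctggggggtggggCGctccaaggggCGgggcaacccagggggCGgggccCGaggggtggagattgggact
The Hapln2 stretch holds 2 CG dinucleotides in 178 bases and the Sdc1 stretch 6 in 177 bases. Over the RefSeq window of 300 bases around the start, Hapln2 had 2 CG dinucleotides and 52.0% G and C, and 85.9% of all 32851 such mouse windows had as many CG dinucleotides or more. The Sdc1 window had 14 CG dinucleotides and 66.3% G and C, a count that 36.3% of windows reached. The octamers bound by capicua, TGAATGAA, TGAATGGA, TCAATGAA and TCAATGGA, were searched on both strands of each window, counting a position once. They were in the windows of 0 of the 9 genes of the set that had one, and in 3.84% of all windows. This says only that these letters are not in these windows.

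The other link proteins overlapped between the groups. Hapln1, the link protein of cartilage and of perineuronal nets, was at 4.05, 5.85, 6.16 and 4.53 CPM in CicKO, against 6.55, 5.89 and 7.38 CPM in Wildtype (log2 fold change -0.36, SE 0.165). CicKO 1 and 4 were the lowest libraries, and CicKO 3 exceeded Wildtype 2. Hapln4, also called Bral2, holds brevican in perineuronal nets and around inhibitory synapses of the cerebellar nuclei. It was at 274, 253, 170 and 259 CPM in CicKO, against 177, 200 and 152 CPM in Wildtype (log2 fold change 0.44, SE 0.173). CicKO 1, 2 and 4 were above all Wildtype libraries and CicKO 3 was within the Wildtype range; without CicKO 3 the log2 fold change was 0.57 and the gene was called. Hapln3, a link protein known mainly from vessels outside the brain, had 12 to 28 counts per library and 0.114 to 0.256 CPM in CicKO, against 0.139 to 0.243 CPM in Wildtype, with a log2 fold change of -0.12 (SE 0.391) that was not detectable at this depth.

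Among the lecticans, Bcan and Ncan were higher in every CicKO library than in any Wildtype library, by small amounts. Bcan encodes brevican, a lectican of the adult brain made by astrocytes, Bergmann glia and oligodendrocyte lineage cells, and was at 320, 298, 286 and 316 CPM in CicKO, against 270, 260 and 262 CPM in Wildtype (log2 fold change 0.21, SE 0.0539). Ncan encodes neurocan, a lectican most abundant in the developing brain, and was at 21.5, 23.2, 20.8 and 19.3 CPM in CicKO, against 16.6, 17.8 and 14.7 CPM in Wildtype (log2 fold change 0.37, SE 0.0858). The gap between the groups was narrow for both, with the lowest CicKO library 16.1 CPM above the highest Wildtype library for Bcan and 1.59 CPM above it for Ncan. Ncan was called higher with the replicate number as a block (log2 fold change 0.42, in a fit where CicKO 4 has no partner and drops out) and by DESeq2, which also called Bcan.

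Vcan and Acan overlapped between the groups. Vcan encodes versican, whose V2 form is the brain's node-associated lectican, and was at 38.5, 45.5, 49.6 and 44.1 CPM in CicKO, against 36.5, 38.3 and 41.5 CPM in Wildtype (log2 fold change 0.20, SE 0.0874). Counts per gene do not separate the splice forms of Vcan or of Bcan. Acan encodes aggrecan, the lectican that defines perineuronal nets, and was at 0.591, 1.61, 1.96 and 0.570 CPM in CicKO, against 1.69, 1.77 and 2.91 CPM in Wildtype (log2 fold change -0.84, SE 0.475). CicKO 1 and 4 were far below the rest, CicKO 2 was just below the Wildtype range and CicKO 3 within it. The spread between CicKO libraries was thus too wide for the group difference to stand out, and across alternatives the log2 fold change ran between -1.20 and -0.55.

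Tnr, whose product tenascin-R is made by oligodendrocytes and some neurons and crosslinks lecticans, did not separate the groups. It was at 37.4, 32.5, 36.9 and 26.0 CPM in CicKO, against 27.5, 35.1 and 33.0 CPM in Wildtype (log2 fold change 0.06, SE 0.137). An exon of Tnr shares 443 bases with an antisense gene of GENCODE M21, Gm38039, which has no counts of its own here, and since no strand setting is given reads of that stretch cannot be assigned to either.

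Each link protein gene lies beside a lectican gene with no coding gene between them (GENCODE M21, GRCm38), and the differences of neighbours are set side by side here. Hapln2 (chromosome 3, 88021750 to 88027583, minus strand) lies 21519 bases from Bcan (87987531 to 88000230, minus strand), with log2 fold changes of -1.19 and 0.21. Hapln1 (chromosome 13, 89539796 to 89611652) and Vcan (89655312 to 89742509) are 43659 bases apart, with -0.36 and 0.20. Hapln4 (chromosome 8, 70083457 to 70090862) and Ncan (70093085 to 70120873) are 2222 bases apart and both had positive values, 0.44 and 0.37. Hapln3 (chromosome 7, 79115102 to 79131018) and Acan (79053483 to 79115099) converge with 2 bases between them, with -0.12 and -0.84, where the sign for Hapln3 is not determined (4 of 13 alternatives gave a positive value). Sdc1 (chromosome 12, 8771323 to 8793715) and Tnr (chromosome 1, 159523769 to 159931729) have no such partner.

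To compare the genes with each other, CPM was divided by exon length in kilobases (RPKM). Bcan had the highest level, 75.0 ± 3.88 RPKM in CicKO and 65.0 ± 1.37 RPKM in Wildtype, above 96.3% of tested genes in Wildtype. Hapln4 followed at 60.9 ± 12.0 RPKM in CicKO and 45.0 ± 6.19 RPKM in Wildtype. Hapln2 was the third, at 6.91 ± 1.27 RPKM in CicKO and 15.7 ± 2.93 RPKM in Wildtype. Brevican and its link protein Hapln4 thus had the highest levels of the set in both groups.

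Sdc1, Vcan, Tnr and Ncan formed a group of similar levels. Sdc1 was at 1.62 ± 0.115 RPKM in CicKO and 3.39 ± 0.395 RPKM in Wildtype, and the Wildtype means of Vcan, Tnr and Ncan were 2.68, 2.47 and 2.28 RPKM. In CicKO their means were 3.07, 2.58 and 2.95 RPKM, and Sdc1 was below all of them in every CicKO library. Hapln1 (0.871 RPKM in CicKO and 1.12 RPKM in Wildtype), Acan (0.158 RPKM in CicKO and 0.284 RPKM in Wildtype) and Hapln3 (0.0529 RPKM in CicKO and 0.0578 RPKM in Wildtype) were the lowest, and Hapln3 was above only 3.86% of tested genes in Wildtype. Of the 9 neighbours in the Wildtype order, 6 kept their order in all 7 libraries, while Sdc1 and Vcan, Vcan and Tnr, and Tnr and Ncan changed places between libraries. The order of the Wildtype means was the same with the longest transcript in place of all exons, and 7 of the 9 pairs then kept their order in all 7 libraries, with Vcan above Tnr in each.

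**Figure D2:**
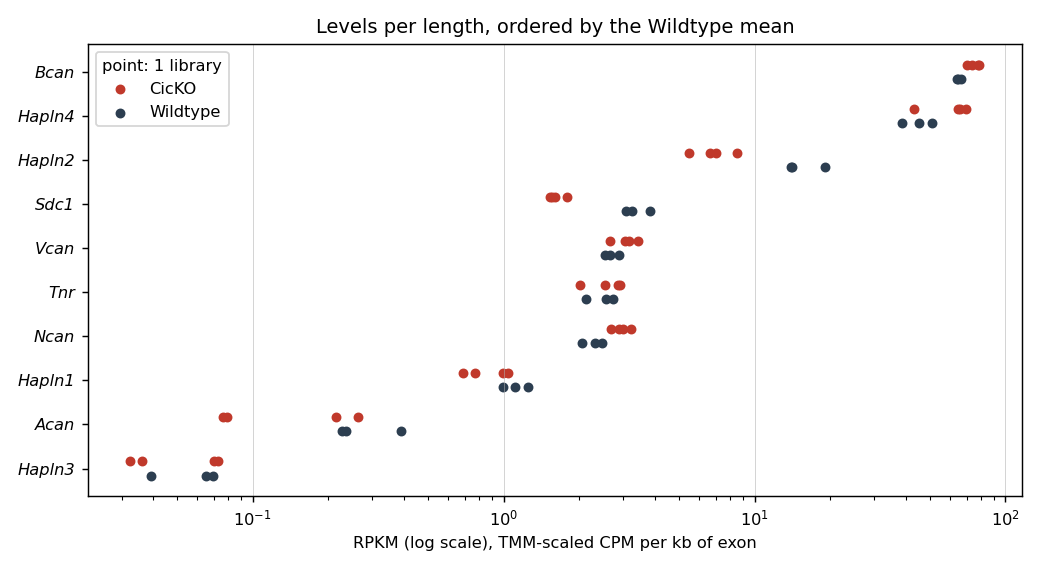
RPKM of each gene on a log axis, 1 point per library, with CicKO (red) drawn above Wildtype (dark blue) and genes ordered by the Wildtype mean. Bcan and Hapln4 lie near 75.0 and 60.9 RPKM in CicKO, against 65.0 and 45.0 RPKM in Wildtype, while Hapln3 lies near 0.0529 RPKM in CicKO, against 0.0578 RPKM in Wildtype.

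The makeup of the link protein transcripts differed between the groups, while the share of every lectican overlapped. Hapln2 made up 8.57%, 11.5%, 13.7% and 7.56% of the summed RPKM of the 4 link proteins in CicKO, against 23.2%, 26.9% and 26.1% in Wildtype. Hapln4 made up 88.3 ± 3.29% in CicKO and 72.7 ± 1.91% in Wildtype (SD, n = 4 and 3). No library of either gene's share overlapped with the other group, while the summed level of the family did, at 68.8 ± 11.8 RPKM in CicKO and 61.9 ± 8.67 RPKM in Wildtype. Bcan made up 92.4 ± 0.892% of the lectican sum in CicKO and 92.5 ± 0.349% in Wildtype. That sum was 81.2 ± 3.44 RPKM in CicKO and 70.2 ± 1.21 RPKM in Wildtype, without overlap. Shares within a family are tied to each other, so the higher share of Hapln4 and the lower share of Hapln2 are not separate measurements. Because Hapln2 was selected on its low counts in CicKO, its lower share follows from that choice and adds no support to it.

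**Figure D3:**
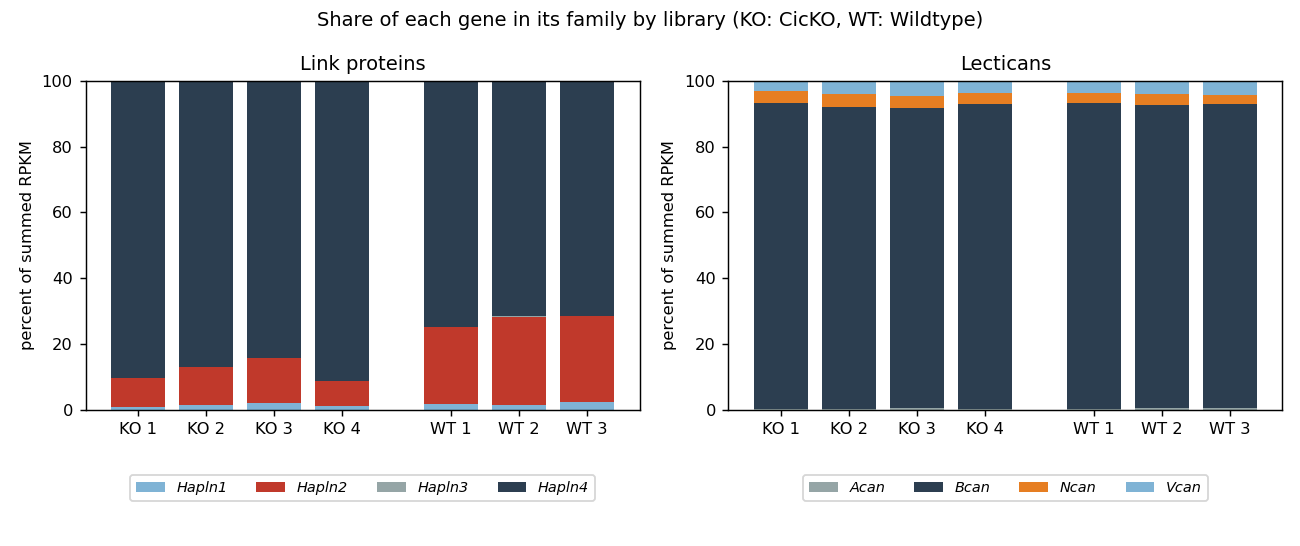
Share of each gene in the summed RPKM of its family, as stacked percentages per library, with CicKO libraries (KO) left of Wildtype libraries (WT). In the link proteins Hapln2 (red) takes 7.56% to 13.7% in CicKO and 23.2% to 26.9% in Wildtype, and in the lecticans Bcan takes 91.5% to 93.2% in CicKO and 92.3% to 92.9% in Wildtype.

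Hapln2 was set against versican, its binding partner at nodes. Since Hapln2 was selected on its low counts in CicKO, a lower ratio there follows from that choice and adds no support. The RPKM of Hapln2 was 249%, 271%, 205% and 180% of that of Vcan in CicKO, against 555%, 722% and 490% in Wildtype, so Hapln2 transcript exceeded that of Vcan in all 7 libraries and did so by less in CicKO. Hapln1 over Vcan was 28.2 ± 3.20% in CicKO and 41.7 ± 3.52% in Wildtype, also without overlap, although Hapln1 alone overlapped. Hapln4 over brevican, its partner, overlapped at 80.8 ± 13.0% in CicKO and 69.3 ± 9.95% in Wildtype, as did Tnr over Bcan at 3.45 ± 0.622% in CicKO and 3.82 ± 0.545% in Wildtype. These ratios were chosen after the levels had been seen.

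Among the 4 syndecans, Sdc1 had the lowest share. It made up 1.71 ± 0.143% of the summed syndecan RPKM in CicKO and 3.25 ± 0.298% in Wildtype. Selection of Sdc1 on its low counts in CicKO favoured this lower share, which adds no support. The other syndecans, which in the brain are made by neurons and glia, were not chosen on their values: Sdc2 had a log2 fold change of -0.08 (SE 0.0834, edgeR adjusted p = 0.681), Sdc3 of -0.10 (SE 0.0518, adjusted p = 0.383) and Sdc4 of -0.13 (SE 0.0845, adjusted p = 0.492). The differences between Sdc1 and the others were not tested.

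Whole cerebellum mixes cell types, and in bulk RNA fewer cells of a type cannot be told apart from less RNA per cell. Markers of mature oligodendrocytes, the cells that make Hapln2, summed to 4855, 6851, 4982 and 4460 CPM in CicKO, against 5855, 7356 and 6372 CPM in Wildtype, with overlap. All 16 markers were detected, all had negative log2 fold changes between -0.83 and -0.03 (median -0.31), and 7 had an unadjusted p below 0.05, all lower. The share of all genes tested below that p is not given, so the count of 7 has no background beside it. Of the 16 markers, edgeR called Cldn11 lower, and DESeq2 called Cldn11, Cnp and Mobp lower. Hapln2 had a lower log2 fold change than each of the 16. As a share of the marker sum, Hapln2 was 0.323%, 0.295%, 0.334% and 0.291% in CicKO, against 0.567%, 0.616% and 0.524% in Wildtype. The mean share in CicKO was thus 0.546 times that in Wildtype, between 0.512 and 0.570 times when libraries were left out, compared with 0.439 times for the mean CPM of Hapln2 alone. Because Hapln2 was selected on its low counts in CicKO, its place below the markers and its lower share were favoured by that choice. Nothing is therefore read from either about a loss beyond that of the markers.

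**Figure D4:**
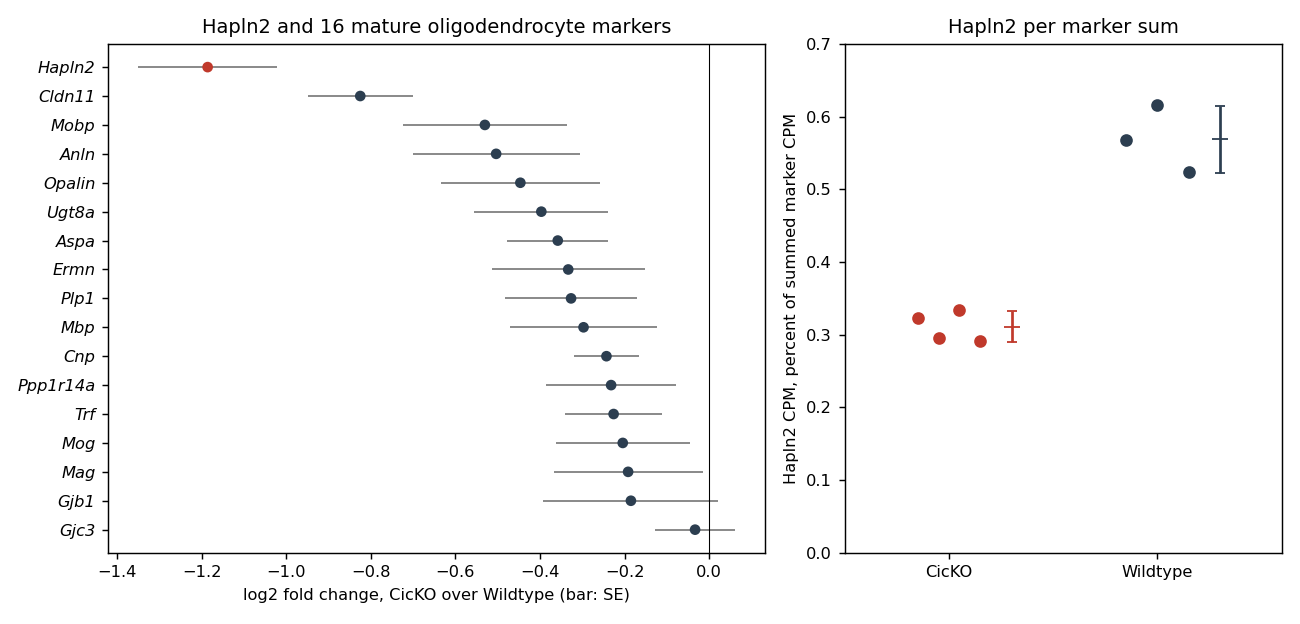
Left, log2 fold change of CicKO over Wildtype with its SE (bars) for Hapln2 (red) and 16 mature oligodendrocyte markers (dark blue), and right, Hapln2 CPM as a percent of the summed marker CPM in each library with mean ± SD. Hapln2 at -1.19 lies left of all 16 markers, which run between -0.83 and -0.03, and its share is 0.291% to 0.334% in CicKO against 0.524% to 0.616% in Wildtype.

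Other cell types that express these genes moved as follows. Oligodendrocyte precursor markers, from cells that make Vcan and Bcan, summed to 150 to 183 CPM in CicKO and 185 to 198 CPM in Wildtype, where 1 of 10 was called lower (Olig1, log2 fold change -0.39, SE 0.0760, edgeR adjusted p = 0.0412) and 1 higher (Sapcd2, 0.60, SE 0.118, adjusted p = 0.0440). Astrocyte and Bergmann glia markers summed to 4638 to 4952 CPM in CicKO and 5746 to 5886 CPM in Wildtype, and 4 of 12 were called lower, among them Gdf10 (-0.59, SE 0.0555, adjusted p = 0.00256), Agt (-0.70, SE 0.0838, adjusted p = 0.00694) and Ndrg2 (-0.40, SE 0.0603, adjusted p = 0.0190). Single omissions ended the calls of Olig1 and Ndrg2 in 5 of 7 cases and of Sapcd2 in 6, with adjusted p up to 0.165, and so did leaving out both libraries numbered 3 for Olig1 (adjusted p = 0.114) and Sapcd2 (0.0956). Sapcd2 was also not called with the replicate block (0.0621) or with no count filter (0.0528). DESeq2 called 1 precursor marker lower and 1 higher, and 6 astroglial markers lower. Bcan and Ncan thus had higher counts in CicKO beside a lower sum of astroglial markers. Bcan was 6.28 ± 0.230% of that sum in CicKO and 4.54 ± 0.105% in Wildtype, while Sdc1 was 0.127 ± 0.00817% in CicKO and 0.222 ± 0.0257% in Wildtype. As Sdc1 was selected on its low counts in CicKO, its lower share was favoured by that choice and adds no support. Which cells made the Sdc1 RNA was not tested.

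Neuronal markers were set beside Hapln1, Hapln4 and Acan, which nets contain. Markers of cerebellar nuclei and Golgi neurons summed to 399 to 480 CPM in CicKO and 513 to 566 CPM in Wildtype, with Nefh called lower (log2 fold change -0.22, SE 0.0451, edgeR adjusted p = 0.0492) as 1 of 10, while DESeq2 called 3 lower (Nefh, Nefl and Nefm). The 3 called are neurofilament genes, and whether they are particular to these neurons was not tested. The 10 markers did not share a direction, as 6 had negative and 4 positive log2 fold changes, between -0.98 and 0.42. The edgeR call of Nefh was lost in 6 of 7 single omissions (adjusted p up to 0.181), with the replicate block (0.0670), with DESeq2 size factors (0.0509), with no count filter (0.0522) and without both libraries numbered 3 (0.114). Acan was 0.262 ± 0.141% of this sum in CicKO and 0.394 ± 0.104% in Wildtype, and Hapln1 1.17 ± 0.140% in CicKO and 1.24 ± 0.0934% in Wildtype, both with overlap. Purkinje cell markers summed to 9831 to 13886 CPM in CicKO and 9959 to 11753 CPM in Wildtype, and 10 of 10 had positive log2 fold changes. Of these, 0 were called by edgeR or DESeq2 and 0 had an unadjusted p below 0.05. The libraries came in the same order by Hapln4 as by the Purkinje sum in both groups. Hapln4 was 1.98%, 2.07%, 1.73% and 1.93% of that sum in CicKO, against 1.76%, 1.70% and 1.52% in Wildtype. Acan and its marker sum shared an order in Wildtype alone, and Hapln1 and its sum in neither group. Bcan, Ncan and Sdc1 did not share the order of the astroglial sum in either group. The match of Hapln4 was thus the only one in both groups among the pairs looked at. These pairings of gene and marker list were chosen after the values had been seen.

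Plasma and B cell markers, the cell type best known for Sdc1, summed to 1.90 to 2.16 CPM in CicKO and 1.55 to 2.18 CPM in Wildtype, with none of the 8 markers in the files at 0 in any library. Granule neuron markers summed to 6119 to 7198 CPM in CicKO and 6188 to 6977 CPM in Wildtype. The sums of endothelial (177 to 219 CPM in CicKO and 165 to 185 CPM in Wildtype) and meningeal and mural markers (130 to 185 CPM in CicKO and 119 to 234 CPM in Wildtype) overlapped between the groups. Still, 10 of 10 endothelial markers had positive log2 fold changes (median 0.19). Of these, 3 had an unadjusted p below 0.05, edgeR called 0 and DESeq2 called 1 higher. That count of 3 has no background beside it, since the share of all genes tested below that p is not given. Of the meningeal and mural markers, 9 had negative and 1 positive log2 fold changes, with 0 called by edgeR or DESeq2. Without both libraries numbered 3, which are high in choroid plexus transcripts, the log2 fold change of Hapln2 was -1.27 and that of Sdc1 -1.08, and Hapln4 was called higher at 0.47. The part of the oligodendrocyte, astroglial, neuronal and endothelial differences in the results for these genes was not tested.

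The surrounding matrix was described with 7 lists of 150 genes, which leave out the 10 genes. Of 146 tested, 3 were called lower and 1 higher by edgeR, beside 0.828% and 1.25% of all genes tested, and their median log2 fold change was -0.01. The calls changed when single libraries were left out, as did those over all genes. Without CicKO 1, CicKO 4, Wildtype 1 or Wildtype 3 there were 0 lower. Over all genes these omissions gave 21, 28, 25 and 24 lower, against 140 with all libraries. Without CicKO 3 there were 10 lower and 10 higher, beside 349 and 493 over all genes. There were 0 higher without CicKO 1, CicKO 2, CicKO 4, Wildtype 1 or Wildtype 3, where 65, 99, 79, 77 and 78 of all genes were, against 212 with all libraries. With the replicate block and without both libraries numbered 3 there were 4 higher, beside 310 and 256 over all genes. DESeq2 called 11 lower and 7 higher, beside 497 lower and 675 higher over all genes. The number of genes DESeq2 tested is not given. Its counts here and in the marker lists thus have no share over all genes beside them, and nothing is read from them.

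The genes that passed came from 3 of the lists. Hs3st1, a sulfotransferase of heparan sulfate, was lower, at 31.2 ± 4.09 CPM in CicKO and 47.3 ± 4.22 CPM in Wildtype (log2 fold change -0.60, SE 0.104, adjusted p = 0.0297), the only call among 37 tested genes of chondroitin and heparan sulfate synthesis. Itgav, the integrin alpha-V subunit, was lower among 18 neuronal matrix receptors, at 52.4 ± 2.46 CPM in CicKO and 62.7 ± 2.25 CPM in Wildtype (-0.26, SE 0.0527, adjusted p = 0.0492). Of 23 node and paranode genes, Cntnap2, which encodes the juxtaparanodal protein Caspr2, was higher, at 76.4 ± 4.17 CPM in CicKO and 61.5 ± 2.78 CPM in Wildtype (0.31, SE 0.0559, adjusted p = 0.0330). Cldn11, a tight junction gene of myelin that is also among the oligodendrocyte markers, was lower, at 50.4 ± 8.96 CPM in CicKO and 89.4 ± 3.80 CPM in Wildtype (-0.83, SE 0.124, adjusted p = 0.0213). Hs3st1 was not called without CicKO 1, 2 or 4 or Wildtype 1 or 3 (adjusted p up to 0.133), and Cldn11 was not without CicKO 1 or 4 or Wildtype 1 or 3 (up to 0.0929). Omitting any library but CicKO 3 ended the calls of Itgav (up to 0.187) and Cntnap2 (up to 0.144). Itgav was also not called with the replicate block (adjusted p = 0.0680), with DESeq2 size factors (0.0536), with library size alone (0.0657) or without both libraries numbered 3 (0.0960), and Cldn11 was not in the last of these (0.0731).

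In the other 4 lists edgeR called 0 genes. Of 14 genes of hyaluronan synthesis, turnover and receptors, 3 lower and 3 higher had an unadjusted p below 0.05, and DESeq2 called 1 lower (Cd44) and 2 higher (Has1 and Has3). The hyaluronan synthases Has2 and Has3 had log2 fold changes of -0.45 (SE 0.382, edgeR adjusted p = 0.609) and 0.45 (SE 0.144, adjusted p = 0.172). Of 16 syndecan and glypican genes and adaptors, 0 lower and 1 higher had an unadjusted p below 0.05, and DESeq2 called 0. Of 16 other proteoglycans and tenascins, 1 lower and 1 higher did, and DESeq2 called 1 lower (Omg). That list holds Tnc (-0.03, adjusted p = 0.966), the tenascin of developing glia, and the chondroitin sulfate proteoglycans Cspg4 (0.13, adjusted p = 0.552), Cspg5 (0.14, adjusted p = 0.295) and Ptprz1 (0.08, adjusted p = 0.597).

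Of 22 matrix proteases and inhibitors, enzymes that cut lecticans and their blockers, 6 lower and 2 higher had an unadjusted p below 0.05, and DESeq2 called 4 lower (Adamts9, Mmp14, Plat and Timp4) and 1 higher (Mmp16). Their summed level was 774 to 838 CPM in CicKO and 888 to 948 CPM in Wildtype, without overlap. For these lists too, the share of all genes tested with an unadjusted p below 0.05 is not given. The counts at that unadjusted p therefore have no background beside them. The names of genes called by DESeq2 alone were added after their values were seen.

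**Figure D5:**
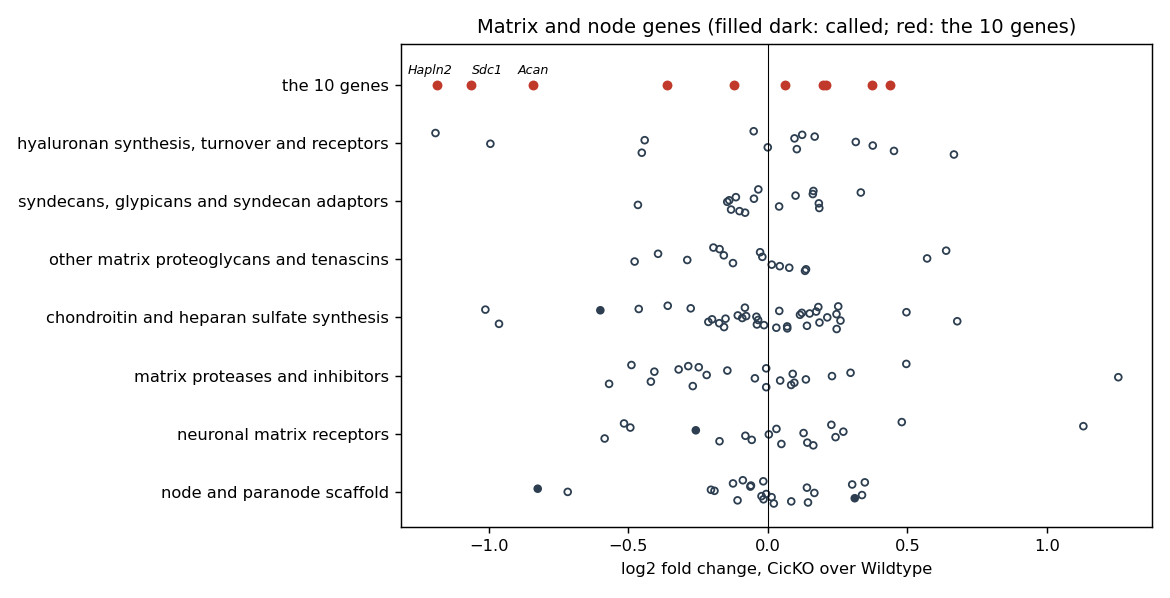
Log2 fold change of CicKO over Wildtype for the 10 genes (red, top) and for the tested genes of 7 matrix and node lists, where filled dark points are the 4 genes called by edgeR and open points were not called. Hapln2 at -1.19 and Sdc1 at -1.06 lie among the lowest points, while the 146 list genes centre on -0.01.

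Finally, the library-to-library pattern of Hapln2 and Sdc1 within the groups was compared with that of 13228 genes, as the Pearson r of deviations from the group mean over the 7 libraries. The genes most like Hapln2 were Sox10, the oligodendrocyte lineage transcription factor (r = 0.99), Amz2, Kctd15, Fosl2 and Gfap (r = 0.99 each). Of these Kctd15 was called lower (log2 fold change -0.54, SE 0.0927, edgeR adjusted p = 0.0280), a call lost in 5 of 7 single omissions (adjusted p up to 0.101) and without both libraries numbered 3 (0.05001). Fosl2 had a fold change of the same size as Hapln2 with a wide error (-1.19, SE 0.439, adjusted p = 0.253; 0.0214 with the replicate block). The genes most like Sdc1 were Adgrg1 and Clec14a (r = 0.99 each) and Nav1, Tmem168 and Cdc40 (r = 0.97 each), none of which was called. With each other, Hapln2 and Sdc1 had r = -0.26, while Hapln2 and Ncan had r = 0.86. The values rest on 7 points that share library depth and makeup, and the highest of so many genes are high by selection.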

How the data were processed

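Raw counts per gene symbol were deposited in a file for each library, without normalization. The authors used STAR 2.5.3a, HTSeq and DESeq2 with build mm10, per the submitters' processing notes; annotation, strand setting and read filters are not given in the sources. Per the labels' protocols, cDNA was amplified from 10 ng of total RNA by poly(A) and random priming and sequenced on an Illumina HiSeq. Reads outside genes (16.0% to 19.0%), ambiguous (1.27% to 1.37%) and without a unique alignment (12.0% to 13.7%) stayed out of library sizes.

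Genes passing filterByExpr were tested with edgeR 4.0.16 (TMM scaling, robust quasi-likelihood F test, Benjamini-Hochberg adjustment, called at an adjusted p below 0.05), a procedure tested on simulated data. The standard error was taken as the size of the log2 fold change over the root of F. RPKM used all exons of each gene in GENCODE M21. A count of 3 per library, the least read as detection, equals 0.0247 to 0.0292 CPM; this covers counting error only. Pairs of libraries of the same group differed by more than sampling noise (chi-square per degree of freedom 18.5 to 157), so none was counted as a repeat.

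The 10 genes and the marker and pathway lists were chosen with earlier results of these data known. Named are the 10 genes, Cic, at most 4 called genes per pathway list and 3 per marker list, 9 relatives, and the 5 genes most like Hapln2 and Sdc1. Deviations of libraries with the same number correlated across genes at r = 0.15, 0.29 and 0.71, above the limit of 0.1 set for pairing, although pairs with different numbers also did (0.32 for CicKO 1 and Wildtype 2) and the labels do not say what the number marks. The 13 alternatives were 2 other scalings, DESeq2 1.42.0, no count filter, the replicate block, omission of each library and of both numbered 3. RPKM was also computed from the longest transcript.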

Additional observations from a re-analysis of the deposited data

Results flagged for a closer look

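Within the 4 CicKO libraries, 76 values were tested for a library that stands apart from the other 3 by Dixon's test, and 4 did; chance gives such a result in about 1 of 20 groups. Choroid plexus markers summed to 12102 CPM in CicKO 3. The level of Hapln4 relative to Bcan was 61.4% in CicKO 3 and 85.1% to 88.7% in the other CicKO libraries. Sdc4 was at 99.5 CPM in CicKO 3, against 87.2 to 89.0 CPM in the other CicKO libraries. Cspg4 was at 7.05 CPM in CicKO 4, against 7.97 to 8.11 CPM in the other CicKO libraries.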

How the results depend on the processing

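Both scalings and the absence of a count filter changed no call among the 10 genes. DESeq2 called 675 genes higher and 497 lower, against 212 and 140 by edgeR, with 2 of the 10 genes higher (Bcan and Ncan), and 7 higher and 11 lower in the pathway lists. The replicate block called 1 of the 10 higher (Ncan) and 4 pathway genes higher; it ended the calls of Itgav (adjusted p = 0.0680), Sapcd2 (0.0621) and Nefh (0.0670) and of no other pathway, marker or likeness gene whose adjusted p is printed, and added that of Fosl2 (0.0214). Without both libraries numbered 3, 1 of the 10 (Hapln4) and 4 pathway genes were higher. Single omissions gave 65 to 493 genes higher, 21 to 349 lower, 1 to 2 of the 10 genes lower, 0 to 2 higher, 0 to 10 pathway genes lower and 0 to 10 higher. The highest counts came without CicKO 3, where Hapln4 and Bcan were called higher; the cause was not tested. Tnc, at -0.03 with all libraries, had log2 fold changes between -0.24 and 0.11 over single omissions (0.03 without CicKO 1, 0.11 without CicKO 3, 0.04 without Wildtype 2) and of 0.048 without both libraries numbered 3. None of the 13 alternatives moved the log2 fold change of any of the 10 genes by more than the spread between replicates, and only Hapln3 and Tnr changed sign. Low depth limits Hapln3, with 12 to 28 counts.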
